A study of Mus musculus with 20 samples.

Results

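The comparison of Ncs1 knockout with wild-type frontal cortex comprised 10 of the 20 RNA-seq libraries of the study, chosen by the region and genotype in their labels. The 5 wild-type libraries are written WT1 to WT5 and the 5 libraries of Ncs1-/- mice KO1 to KO5. All came from mice with a C57Bl6/J background, and total RNA was taken from dissected frontal cortex that had been flash frozen. The other 10 libraries, 5 per genotype, came from hippocampus and were used only where a cortical value was set beside them. The sources used here do not give the age or sex of the mice or how the allele was made. No label states that the libraries of a group came from separate mice, so p-values measure only how far these samples spread, and part of that spread may be technical.

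Neuronal calcium sensor 1, the product of Ncs1, is a small myristoylated protein with EF-hand motifs that binds calcium with high affinity. It belongs to a family of neuronal sensors that turn rises of calcium into changes of membrane traffic, channel activity and receptor signalling. In the brain it is known for roles in neurotransmitter release, in short-term synaptic plasticity and in the regulation of dopamine D2 receptors, phosphatidylinositol 4-kinase and inositol trisphosphate receptors. The comparison describes which transcripts of the frontal cortex differ between both labelled genotypes. An effect of the disrupted gene cannot be told apart from other differences between the groups, including DNA elsewhere on its chromosome.

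Expected counts per gene were available for 17442 genes, of which 14823 passed the filter on low counts and were tested. Libraries held 16.6 M to 26.7 M counts, all 10 carry the same lane tag in their labels, and between 1.06% and 4.0% of these belonged to the ribosomal precursor Rn45s. Levels are given as CPM, counts scaled to the size of the library, after TMM scaling, and a fold change is the log2 ratio of knockout to wild type. A gene is called where edgeR's quasi-likelihood test gave an adjusted p under 0.05. Of the tested genes, 4 were called, which is 0.027%, with 2 higher and 2 lower (0.0135% each). An unadjusted p under 0.05 was reached by 2199 genes (14.8%), 1198 higher (8.08%) and 1001 lower (6.75%). In 319 genes (2.15%) the libraries of both genotypes did not overlap, with 145 higher (0.978%) and 174 lower (1.17%). The median log2 fold change of all tested genes was 0.00186, and 50.6% lay above 0.

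The label of frontal cortex was checked against markers. Summed levels of 14 markers of excitatory cortical neurons lay between 7220 and 8253 CPM in wild type and between 6827 and 7449 CPM in knockout. Summed levels of 16 tested cortical layer markers lay at 1311 to 1402 and 1337 to 1420 CPM. Of 9 markers of hippocampal and dentate neurons, Dsp and Spink8 were too low to test and the list summed to at most 205.7 CPM in any library. Markers of striatal projection neurons summed to 1919 to 2770 CPM across wild-type libraries, against 2015 to 3165 CPM in knockout. RNA of these marker genes was thus present in every library, in amounts that varied within each genotype. The sums do not tell which cells this RNA came from. In bulk tissue, a smaller share of a cell type and less RNA per cell cannot be told apart.

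Ncs1 itself serves as a check on the labelled genotypes. The gene, at chr2:31245923-31295472 on the forward strand, was at 382, 348, 362, 385 and 349 CPM in WT1 to WT5. It was at 257, 255, 254, 264 and 257 CPM in KO1 to KO5. No knockout library reached the lowest wild-type library, and the knockout values were the tighter of both groups. The log2 fold change was -0.51 (SE 0.04), the knockout mean was 70.5% of the wild-type mean, and the exact two-sided permutation test over all arrangements of the libraries gave p = 0.00794, its lowest possible value. The deposited values sum over exons and do not tell which part of the transcript the remaining reads came from.

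The called gene with the largest rise, Hmcn2, begins 18.9 kb beyond the end of Ncs1 and is transcribed in the same direction. The RefSeq windows from 250 bases before to 50 bases after the start of each gene are shown here because these neighbouring genes moved in opposite directions. They are given 5′ to 3′ on the forward strand of GRCm38.p6, at chr2:31245673-31245972 for Ncs1 and chr2:31314082-31314381 for Hmcn2, with each CG dinucleotide in capitals.
Ncs1: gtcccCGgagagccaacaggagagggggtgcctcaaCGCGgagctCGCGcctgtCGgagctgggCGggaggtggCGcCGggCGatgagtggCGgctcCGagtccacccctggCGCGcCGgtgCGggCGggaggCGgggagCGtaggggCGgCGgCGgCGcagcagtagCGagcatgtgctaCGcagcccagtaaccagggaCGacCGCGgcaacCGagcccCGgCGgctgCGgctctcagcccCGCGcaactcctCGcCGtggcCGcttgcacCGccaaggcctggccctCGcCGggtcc
Hmcn2: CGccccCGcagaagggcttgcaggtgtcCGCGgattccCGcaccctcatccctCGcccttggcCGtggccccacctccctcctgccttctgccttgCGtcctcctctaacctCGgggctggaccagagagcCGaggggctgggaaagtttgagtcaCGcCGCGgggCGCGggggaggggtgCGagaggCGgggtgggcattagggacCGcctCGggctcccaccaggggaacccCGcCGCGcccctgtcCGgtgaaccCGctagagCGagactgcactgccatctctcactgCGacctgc
The Ncs1 window holds 40 CG dinucleotides, and 3.91% of 32851 promoter windows of 300 bases hold as many. The Hmcn2 window holds 26, a number reached by 16.9% of the windows, against a median of 7. A CG reads the same on both strands, and the counts describe the windows only. The window of Trub2 holds 12 and that of Cercam 21, both genes of the same part of chromosome 2 described next.

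Of the 3 called genes besides Ncs1, all on chromosome 2, Hmcn2 encodes hemicentin 2, a large protein of the extracellular matrix. Its level was 0.447, 0.655, 0.306, 0.388 and 0.773 CPM in WT1 to WT5 and 3.35, 5.21, 4.18, 4.01 and 5.35 CPM in KO1 to KO5. The transcript was scarce in all wild-type libraries and several-fold higher in each knockout library, with no overlap. The log2 fold change was 3.11 (SE 0.23).

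Trub2 encodes a pseudouridine synthase that acts on mitochondrial RNA and lies at chr2:29774684-29787672, 1.46 Mb before Ncs1. It was at 22.2, 22.97, 25.5, 27.4 and 22.8 CPM in wild type and 33.1, 35.7, 36.4, 34.8 and 36.2 CPM in knockout. The lowest knockout library stood above the highest wild-type library, and the log2 fold change was 0.54 (SE 0.06). Its gene model overlaps that of Coq4, transcribed the other way, and the sources used here do not say whether counting used strand, so reads of the pair may be shared.

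Lypd6b encodes a membrane-anchored protein of the Ly6 family that modulates nicotinic acetylcholine receptors. It lies at chr2:49787686-49948847, 18.5 Mb beyond Ncs1, and was at 11.5, 12.6, 16.4, 13.7 and 13.1 CPM in wild type. In knockout it was at 7.34, 6.18, 8.09, 5.76 and 5.17 CPM. All knockout libraries lay below all wild-type libraries, and Lypd6b fell by 1.05 on the log2 scale (SE 0.13). Adjusted p-values from edgeR's quasi-likelihood test with Benjamini-Hochberg adjustment were 1.75e-05 (Ncs1), 1.75e-05 (Hmcn2), 0.00293 (Trub2) and 0.00295 (Lypd6b).

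**Figure D1:**
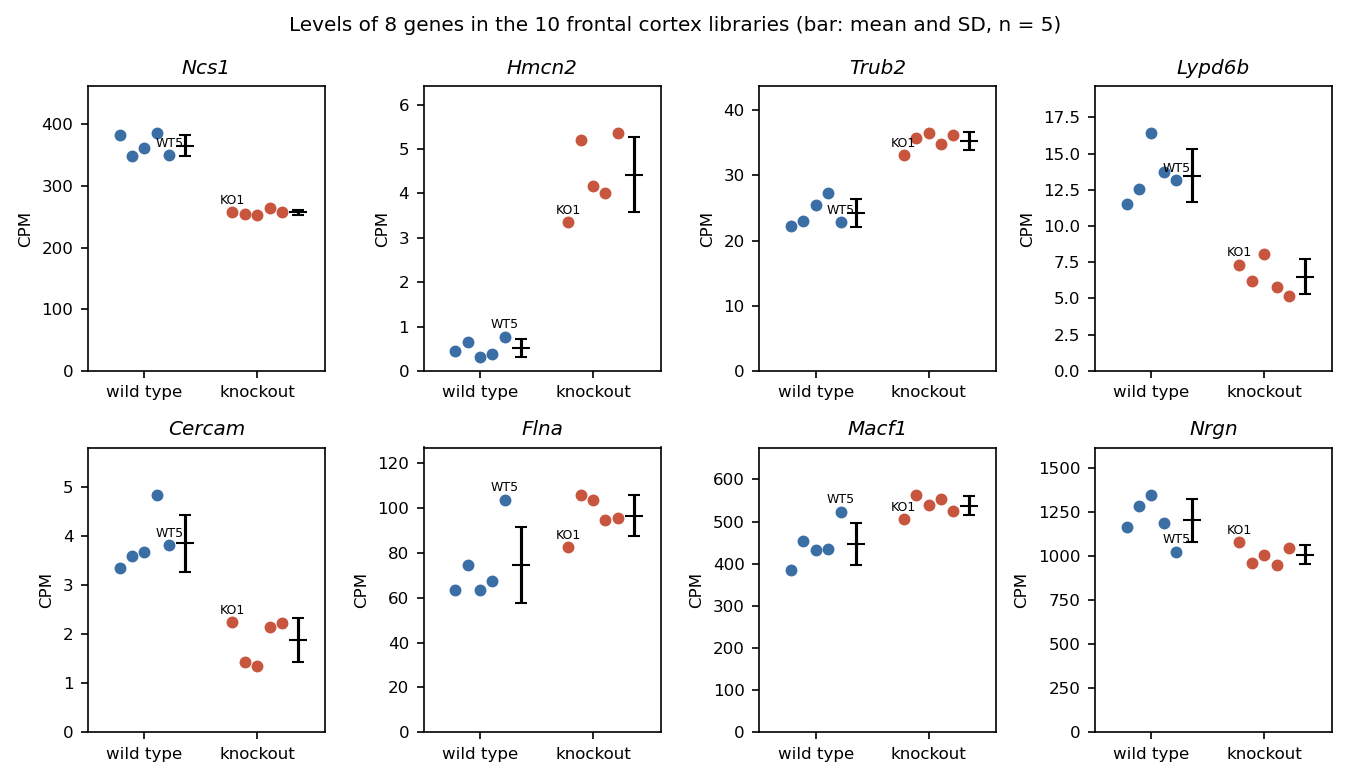
Level in CPM of 8 genes in each frontal cortex library, wild type in blue and knockout in red, with the mean and SD (n = 5) beside each group. Ncs1, Hmcn2, Trub2, Lypd6b and Cercam separate the genotypes in all libraries, while in Flna, Macf1 and Nrgn the library WT5 lies among the knockout libraries.

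The 4 called genes were set beside hippocampus, whose libraries are separate although the labels do not say whether they came from the same mice. In hippocampus the log2 fold change was -0.55 for Ncs1, 3.50 for Hmcn2, 0.58 for Trub2 and -0.61 (SE 0.14) for Lypd6b. The first 3 passed in hippocampus, with edgeR adjusted p-values of 0.00145, 0.00145 and 0.0121, and Lypd6b did not, at 0.991. The unadjusted edgeR p of Lypd6b in hippocampus was 0.00112, with the same direction as in cortex. The difference between regions was tested in edgeR as an interaction over all 20 libraries, where 0 of these genes passed in edgeR or in limma-voom. The cortical log2 fold change of Lypd6b was lower than the hippocampal one by 0.43, with an unadjusted p of 0.0395 and an adjusted p of 0.9998 from edgeR's quasi-likelihood test. For Ncs1, Hmcn2 and Trub2 the unadjusted p of the interaction in edgeR was 0.472, 0.392 and 0.769.

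Of the 16 genes with the next smallest p, 4 lie on chromosome 2, Cercam at 1.36 Mb, Rc3h2 at 6.08 Mb, Arl5a at 21.1 Mb and Thbs1 at 86.8 Mb from Ncs1, and none of the 16 passed the adjusted threshold. Thbs1, which encodes the matrix protein thrombospondin 1, was at 2.91, 2.39, 1.84, 2.23 and 2.47 CPM in wild type and 4.62, 5.82, 4.96, 3.61 and 4.21 CPM in knockout. The groups did not overlap, and the log2 fold change was 0.98 (SE 0.16, edgeR adjusted p = 0.0580). Cercam, also known as cerebral endothelial cell adhesion molecule, was at 3.35, 3.60, 3.68, 4.84 and 3.82 CPM in wild type and 2.25, 1.43, 1.36, 2.15 and 2.22 CPM in knockout. Here too the groups were fully apart, with a log2 fold change of -1.04 (SE 0.17, edgeR adjusted p = 0.0719). Its hippocampal log2 fold change was -1.37, past the threshold there with an edgeR adjusted p of 0.00337. Arl5a, which encodes a small GTPase of the Golgi, was at 155 to 163 CPM across wild-type libraries, against 119 to 147 CPM in knockout, with KO3 the highest of the knockout libraries. Its log2 fold change was -0.30 (SE 0.05). Rc3h2, which encodes the RNA-binding protein Roquin-2, was at 104 to 128 CPM across wild-type libraries, against 129 to 147 CPM in knockout, a log2 fold change of 0.29 (SE 0.06).

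The other 12 lie on other chromosomes. The clustered protocadherin Pcdhb19 had a log2 fold change of 0.45 and overlaps the gene models Gm37013, Gm38666 and Gm38667 on its own strand, so its counts are uncertain. Myoc, which encodes the secreted glycoprotein myocilin, was at 21.6, 18.8, 11.7, 16.7 and 22.8 CPM in wild type and 7.92, 7.15, 12.6, 6.66 and 8.35 CPM in knockout. KO3 lay above WT3, so the groups overlapped in these libraries, and the log2 fold change was -1.09 (SE 0.19). Higher in all knockout than in all wild-type libraries were the zinc finger gene Zkscan16 (0.20), Rev3l (0.27), which encodes the catalytic subunit of DNA polymerase zeta, and the transcription factor gene Onecut2 (0.65). The same held for Gm3558 (1.35), the cation channel gene Trpm3 (0.28), the phosphatase gene Cdc14b (0.36) and the atypical cadherin gene Fat4 (0.37), all as log2 fold changes. Golga7b (-0.23) and Fam43b (-0.33) lay lower in all knockout libraries, and the imprinted gene Zdbf2 (0.45) overlapped between genotypes, with WT5 at 79.1 CPM against 78.7 CPM in KO1. The edgeR adjusted p-values of these 12 genes ran from 0.0580 for Pcdhb19 to 0.152 for Fat4.

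Genes around Ncs1 were described by distance. Within 2 Mb, 90 genes were tested besides Ncs1, and 15 (16.7%) had an unadjusted p under 0.05. The share was 23% of 148 genes between 2 and 10 Mb, 13.3% of 60 genes between 10 and 20 Mb and 15.3% of 884 genes farther away on the chromosome. On other chromosomes it was 14.7% of 13640 genes. The share was thus highest between 2 and 10 Mb, and the differences between distances were not tested. Genes whose genotypes did not overlap made up 7.78% within 2 Mb, 5.41% from 2 to 10 Mb, 5.00% from 10 to 20 Mb, 2.83% farther away and 2.02% on other chromosomes. In this design the disrupted gene cannot be told apart from other DNA differences between the groups on chromosome 2, and the cause was not tested. The 3 genes nearest on the side before Ncs1 were Gpr107 (-0.04), D330023K18Rik (-0.02) and Fnbp1 (0.14, SE 0.04), as log2 fold changes. On the side of Hmcn2 the next genes were Ass1 (0.30, SE 0.15) and Gm5424 (-0.54, SE 0.41), which overlap each other on the same strand and have uncertain counts. Farther out within 20 Mb, the uncalled genes of largest fold change with an unadjusted p under 0.05 besides Cercam were Lcn2 (2.32, SE 0.86), which encodes the iron-binding lipocalin 2, Ccdc187 (0.96, SE 0.22) and Lrrc26 (0.86, SE 0.25), with edgeR adjusted p-values of 0.266, 0.19 and 0.23. Mean levels in wild type and knockout were low, at 1.44 and 2.81 CPM for Ccdc187 and 0.84 and 1.54 CPM for Lrrc26.

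**Figure D2:**
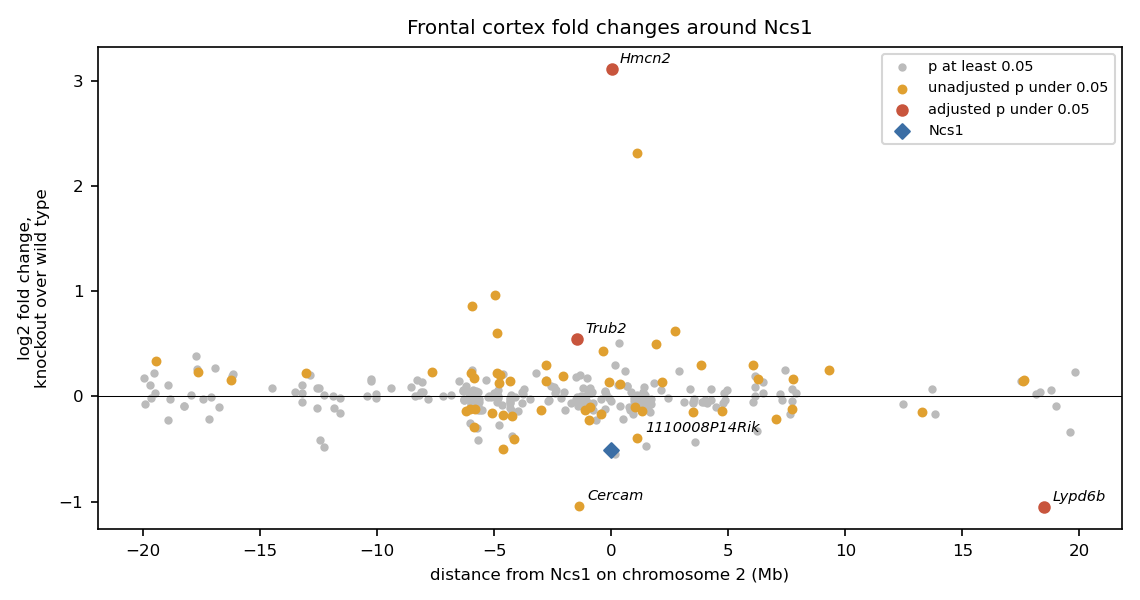
Log2 fold change of each tested gene within 20 Mb of Ncs1 on chromosome 2 against its distance from Ncs1 in Mb, with Ncs1 as a blue diamond, called genes in red, genes of unadjusted p under 0.05 in orange and the rest in grey. Hmcn2 at 3.11 and Trub2 at 0.54 lie close to Ncs1, and Lypd6b at -1.05 lies 18.5 Mb away, with most other genes near 0.

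Larger differences without overlap were ranked among genes of at least 5 CPM. On the lower side these were Ncs1, Lypd6b, Myl4, Met, Lrfn2 and Fam43b. Myl4, which encodes a myosin light chain, was at 8.33, 10.2, 13.5, 8.62 and 8.30 CPM in wild type and 6.82, 5.26, 6.89, 5.01 and 6.55 CPM in knockout, a log2 fold change of -0.70 (SE 0.15). Met, which encodes the receptor of hepatocyte growth factor, ranged from 12.2 to 17.5 CPM across wild-type libraries, against 8.31 to 11.8 CPM in knockout, a log2 fold change of -0.47 (SE 0.12). Lrfn2, a synaptic adhesion gene, had -0.34 (SE 0.08). On the higher side were Onecut2, Trub2, Stk26, Rnf213, Myof and Pcdhb19. Stk26, a kinase gene, ranged from 6.32 to 10.3 CPM across wild-type libraries, against 11.1 to 12.5 CPM in knockout, with WT5 the highest wild-type library and a log2 fold change of 0.53 (SE 0.11). Rnf213, which encodes a ubiquitin ligase, lay 0.47 higher on the log2 scale (SE 0.11), and Myof, which encodes the membrane repair protein myoferlin, 0.46 (SE 0.11). Of these genes only Ncs1, Lypd6b and Trub2 were called.

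WT5 stood apart from the other wild-type libraries in the overall pattern of expression. On the first principal component, which took 24.4% of the variance, WT1 to WT4 lay between -17.8 and -8.49 and WT5 at 13.2, while KO2 to KO5 lay between 8.12 and 16.3 and KO1 at -7.51. Long and short transcripts were then compared, as the log2 deviation from the 10-library mean of genes above the upper quartile of exonic length (6887 bases) less that of genes below the lower quartile (2861 bases). This difference was -0.15, -0.08, -0.06 and -0.11 in WT1 to WT4 and 0.09 in WT5. It was -0.06 in KO1 and 0.10, 0.09, 0.08 and 0.06 in KO2 to KO5. The libraries WT5 and KO1 thus lay with the other genotype in both measures. For Ncs1, the target named beforehand, they lay with their own genotype: WT5 stood 15.1% of the way from the mean of WT1 to WT4 towards the knockout mean. For the other called genes this position was 23.1% for Hmcn2, -18.5% for Trub2 and 2.93% for Lypd6b. Those genes were called with WT5 and KO1 included, which favours genes where both lie with their own genotype, so they are no separate check.

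Log2 fold changes ran with exonic length across genes. In 5 equal groups from the shortest to the longest genes, the median was -0.06, -0.03, -0.01, 0.02 and 0.07. In the group of the shortest genes 32.2% lay higher in knockout, and in that of the longest 75.3%. Pearson's r between log2 fold change and the log10 of length was 0.221, across genes that are not independent replicates and that share the same 10 libraries. In hippocampus the medians of the same groups ran from -0.03 in the shortest to 0.06 in the longest. The part of this trend in the results for single genes and gene groups was described by a refit with the trend removed, and was not tested further. That refit called 5 genes, among them the 4 called before. For many of the gene lists the median with the length trend removed is given as well.

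**Figure D3:**
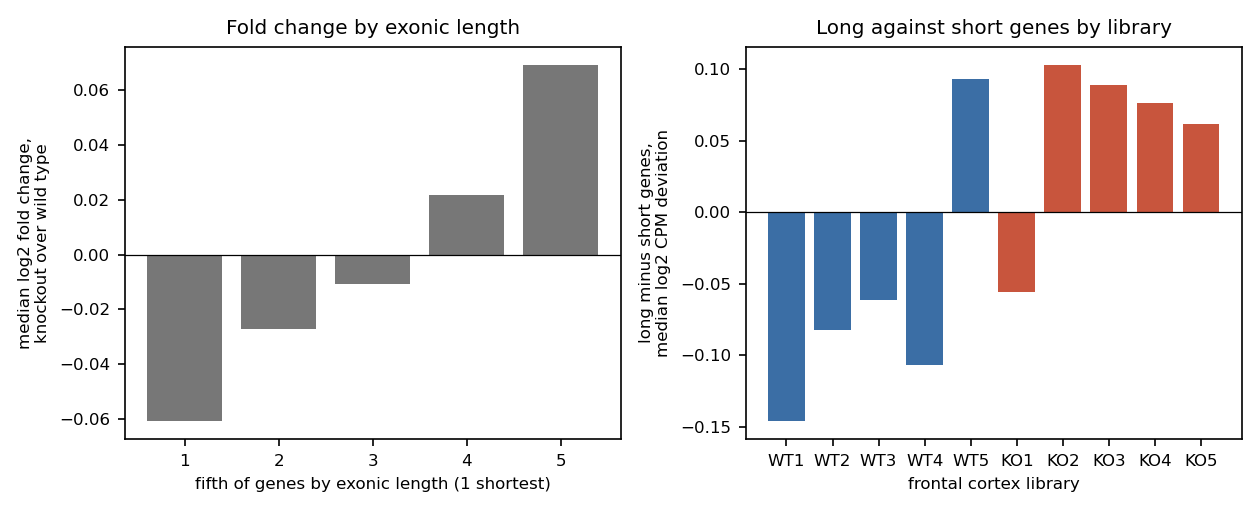
Left, median log2 fold change of genes in 5 equal groups by exonic length, from -0.06 in the shortest to 0.07 in the longest. Right, the log2 deviation of long less short genes in each library, wild type in blue and knockout in red, with WT5 at 0.09 and KO1 at -0.06 on the side of the other genotype.

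Leaving out WT5 moved the number of called genes from 4 to 563 of 14915 (3.77%), 391 higher (2.62%) and 172 lower (1.15%). Leaving out any other library gave 4 to 6. WT5 was not used to choose these 563 genes, and its level was expressed as the way from the mean of WT1 to WT4 (0%) to the knockout mean (100%). Its median position was 97.6%, with quartiles of 73.5% and 120.0%. It was nearer the knockout mean in 497 genes and nearer the wild-type mean in 66. KO1, which was used to choose the genes, had a median position of 56.7%, while KO2 to KO5 lay between 95.5% and 120.0%. With all 10 libraries, 528 of the 563 genes had an unadjusted p under 0.05 in edgeR and 4 were called. Once the length trend was removed, 416 had an unadjusted p under 0.05 over all 10 libraries. The median exonic length was 11000 bases for the higher and 2916 bases for the lower genes, against 4497 bases for all tested genes.

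The genes with the smallest p in that fit were examined in all 10 libraries. On the higher side, Macf1, which encodes a protein that links microtubules and actin, was at 385, 454, 432, 436 and 523 CPM in WT1 to WT5 and 506, 563, 539.97, 554 and 525 CPM in KO1 to KO5. WT5 was above KO1, and the log2 fold change was 0.33 without WT5 and 0.27 with it. Flna, which encodes the actin cross-linker filamin A, was at 63.4, 74.7, 63.4, 67.5 and 104 CPM in wild type and 82.5, 106, 104, 94.5 and 95.6 CPM in knockout. WT5 was again above 3 of the 5 knockout libraries, and the log2 fold change was 0.52 without WT5 and 0.37 with it. Rsf1, a chromatin remodelling gene that overlaps Rsf1os2 on the other strand, had log2 fold changes of 0.26 without and 0.22 with WT5. For the zinc finger gene Zbtb37 they were 0.82 and 0.64, and for Xkr4, of a family of lipid scramblases, 0.45 and 0.35. Macf1 also overlaps D830031N03Rik on its strand and Gm12925 on the other.

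On the lower side, Nrgn, which encodes the calmodulin-binding postsynaptic protein neurogranin, was at 1164, 1287, 1347, 1187 and 1026 CPM in wild type and 1079, 960.25, 1006, 951 and 1044 CPM in knockout. WT5 lay below KO1 and KO5, and the log2 fold change was -0.31 without and -0.25 with WT5. Camk2n1, which encodes an inhibitor of calcium/calmodulin kinase II, had -0.26 and -0.21, and Vip, a neuropeptide of interneurons, -0.33 and -0.24. Vip was at 29.0 CPM in WT5, below each of the 5 knockout libraries, which ranged from 31.7 to 34.1 CPM. The autophagy gene Map1lc3a (-0.23 and -0.18), the cytochrome c oxidase gene Cox7b (-0.21 and -0.18), the tubulin regulator gene Stmn3 (-0.22 and -0.18) and 1110008P14Rik (-0.47 and -0.39) followed the same order, without and with WT5. Only Hmcn2, Trub2, Ncs1 and Lypd6b of the 563 were called with WT5 included.

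The hippocampal libraries were not used in that choice, but the labels do not say whether they came from the same mice. The genes share the same libraries and are not independent replicates, and the called genes are among them. Of the 562 genes tested in both regions, 557 (99.1%) had the same direction in hippocampus, where 71.1% of all 14613 genes did. Among the 2176 genes with an unadjusted cortical p under 0.05 in edgeR over all 10 libraries, 1976 (90.8%) did. An unadjusted edgeR p under 0.05 in hippocampus, reached by 3.73% of all genes tested in both regions, was found for 77 in the same direction and 0 in the opposite one. The median hippocampal log2 fold change was 0.169 for the higher and -0.0839 for the lower genes. With the length trend removed in both regions, 532 of 562 (94.7%) had the same direction, against 68.2% of all genes.

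Gene groups were described by lists of 1040 genes in 52 lists, of which 1000 genes were tested. Of these, edgeR and limma-voom each called 2, Ncs1 and Hmcn2, DESeq2 called 26, and 242 had an unadjusted p under 0.05 in edgeR. Without WT5 edgeR called 68 of them. Over all tested genes, for comparison with these counts and those of each list, 14.8% had an unadjusted p under 0.05 in edgeR, 8.08% higher and 6.75% lower. Without WT5 3.77% of all genes were called. DESeq2 called 2.28% of the 6621 genes to which it gave an adjusted p. Not all list genes had one, as with Hmcn2, so this share has another base than the 26 list genes. Few list members passed with all 10 libraries in edgeR. The groups are therefore given by their counts, medians and spread over libraries. Of the list medians, 29 lay above 0 and 23 below. In 43 of 52 lists WT5 was displaced from the other wild-type libraries towards the knockout side.

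Among the calcium sensors themselves, 10 of 13 members of the neuronal calcium sensor family were tested, with Rcvrn, Guca1a and Guca1b left out for low or no counts. Apart from Ncs1, 3 had an unadjusted p under 0.05 and 0 were called by edgeR. Lower log2 fold changes were those of Hpcal4 (-0.11, SE 0.04) and Ncald (-0.11), and Kcnip4, which encodes a sensor of A-type potassium channels, had 0.12 (SE 0.05). Vsnl1, which encodes visinin-like protein 1, was at 818, 809, 927, 754 and 721 CPM in wild type and 784, 775, 751, 728 and 738 CPM in knockout, so the genotypes overlapped, with a log2 fold change of -0.09. Hpca, which encodes hippocalcin, had -0.05, with overlapping groups at 439.8 to 526 and 413 to 506 CPM. The median of the family was -0.08, and -0.04 with the length trend removed.

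Proteins reported to bind or act with NCS1 were described next, with 11 of 19 genes higher and 8 lower. The median was 0.01, 0.05 without WT5, where 2 members were called, and -0.00257 with the length trend removed. Of the 19 genes, 2 higher and 1 lower had an unadjusted p under 0.05 in edgeR, a share near the 14.8% of all tested genes. Grk2, the kinase that desensitises G-protein-coupled receptors, stood at a log2 fold change of -0.13 (SE 0.04), and Ric8b, a guanine nucleotide exchange factor, 0.20 (SE 0.06). Gdnf, which encodes a growth factor of dopamine neurons, had 0.76 (SE 0.27). The dopamine list, with 6 genes higher and 5 lower, had a median of 0.07, of 0.02 with the length trend removed and of 0.11 without WT5. Drd1, the D1 receptor gene, ranged from 39.7 to 69.1 CPM across wild-type libraries, against 47.7 to 81.1 CPM in knockout.

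Calmodulin and its kinases had 14 of 20 genes lower and a median of -0.05, and 5 of the lower genes had an unadjusted p under 0.05. Calm3, a calmodulin gene, had a log2 fold change of -0.12 (SE 0.04). Voltage-gated calcium channels had 10 of 18 higher and a median of 0.03, and 0.04 without WT5. An unadjusted p under 0.05 was found for 4 higher and 2 lower genes. Cacna1e, which encodes the R-type channel, was at 265, 294, 251, 226 and 322 CPM in wild type and 287, 345, 340.1, 360.4 and 329 CPM in knockout. WT5 was above KO1, and the log2 fold change was 0.29 (SE 0.08). The L-type genes Cacna1c (0.21) and Cacna1d (0.24) lay higher as well, and the auxiliary subunit genes Cacnb3 (-0.12) and Cacnb1 (-0.09) lay lower. With the length trend removed, the median of this list was -0.03, opposite in sign. Among calcium stores and pumps, Ryr3, a calcium release channel gene, had 0.45 (SE 0.15). Of 24 genes 4 had an unadjusted p under 0.05 in edgeR, all higher, where 14.8% of all tested genes did, 8.08% on the higher side. The median of these genes was 0.00205, and -0.04 with the length trend removed.

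Synaptic vesicle release genes had 27 of 36 members lower and a median of -0.04, and -0.06 with the length trend removed. Syn1, which encodes the vesicle protein synapsin I, was at 623, 655, 696, 634 and 648 CPM in wild type and 589, 599, 594, 579.9 and 622 CPM in knockout. The groups did not overlap by a narrow margin, since KO5 was just below WT1, and the log2 fold change was -0.13 (SE 0.04). Syp, which encodes synaptophysin, had -0.14 (SE 0.04), with WT5 at 1166 CPM inside the knockout range of 1132 to 1194 CPM. Of the glutamate receptors, Grin2b, an NMDA receptor subunit gene, had 0.19 (SE 0.06) and the AMPA receptor auxiliary gene Cnih2 -0.18 (SE 0.05). Kainate and GABA-A receptors held 0 and 1 members with an unadjusted p under 0.05, the latter Gabrb1 at 0.13.

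All listed nuclear genes for the complexes of the inner mitochondrial membrane that carry out oxidative phosphorylation lay lower. These were 36 of 36 genes of complex I, 14 of 14 of complexes II and III, 11 of 11 of complex IV and 15 of 15 of ATP synthase, where 49.4% of all tested genes lay below 0. The medians were -0.12, -0.09, -0.12 and -0.14. An unadjusted p under 0.05 was found for 14, 6, 7 and 12 members, against 6.75% of all genes on the lower side, and for 5, 3, 5 and 8 with the length trend removed. Atp5g1, a subunit of the ATP synthase rotor, was at 30.7, 26.8, 32.4, 30.1 and 28.0 CPM in wild type and 27.6, 24.4, 24.1, 24.8 and 25.6 CPM in knockout. KO1 lay above WT2, and the log2 fold change was -0.23 (SE 0.06). Ndufa13 of complex I had -0.22 (SE 0.06), Uqcrc1 of complex III -0.14 (SE 0.04) and Cox5a of complex IV -0.16 (SE 0.04). These are short genes, with a median exonic length from 1214 bases for complex IV to 2054 for ATP synthase, and with the length trend removed the medians were -0.05, -0.04, -0.05 and -0.08. In the shortest of the 5 length groups only 32.2% of genes lay higher, and 342 of 2906 lay lower with an unadjusted p under 0.05. The median deviation of each list was below 0 in WT5 (-0.0856 to -0.038) and above 0 in KO1 (0.0262 to 0.0606), on the side of the other genotype.

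Glycolysis lay lower with little dependence on length. Of 19 genes, 18 lay lower, 14 of them with an unadjusted p under 0.05, and the median was -0.11 both as fitted and with the length trend removed. Pfkl, which encodes the liver type of phosphofructokinase, was at 105, 112, 117, 109.8 and 112 CPM in wild type and 99.3, 102, 98.2, 100.3 and 99.4 CPM in knockout. The genotypes were fully separated, WT5 included, and the log2 fold change was -0.16 (SE 0.04). Ldha, which encodes a lactate dehydrogenase subunit, was at 227, 217, 216, 197 and 202 CPM against 200.25, 183, 185, 178 and 191 CPM. There KO1 lay above WT4, and the log2 fold change was -0.18 (SE 0.05). Aldoa, the aldolase A gene, had -0.16 (SE 0.04), and the glucose transporter genes Slc2a1 and Slc2a3 lay near 0, at 0.00 and -0.02. In hippocampus the median of the list was -0.06.

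Genes of protein synthesis and breakdown lay lower in most cases. Of 79 cytosolic ribosomal protein genes 78 lay lower, with a median of -0.09, and 15 had an unadjusted p under 0.05, or 6 with the length trend removed. Of 76 mitochondrial ribosomal protein genes 70 lay lower, with a median of -0.07. The proteasome had 28 of 31 lower and a median of -0.07. With the length trend removed these medians were -0.04, -0.04 and -0.03. Mrps7, of the small mitochondrial subunit, was at 29.9, 28.2, 27.3, 29.6 and 27.8 CPM in wild type and 24.0, 24.7, 26.04, 24.8 and 25.1 CPM in knockout, with no overlap and a log2 fold change of -0.20 (SE 0.05). Psmd3, of the proteasome cap, was at 75.2 to 84.0 CPM across wild-type libraries, against 68.9 to 71.3 CPM in knockout, also without overlap, with -0.17 (SE 0.04). Among chaperones, Hspa8, the constitutive heat shock protein gene, was at 1437, 1404, 1343, 1259 and 1287 CPM against 1232, 1150.2, 1137, 1186 and 1244 CPM. All knockout libraries lay below all wild-type libraries, with -0.18 (SE 0.04). The reticulum chaperone gene Calr had -0.22 (SE 0.06), with KO1 at 299.1 and WT3 at 299.7 CPM as the nearest libraries of the separated groups.

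Regulators of chromatin and DNA methylation and nuclear RNAs lay on the other side. Of 37 chromatin genes 34 lay higher, 18 with an unadjusted p under 0.05, and the median was 0.13. Ep300, which encodes a histone acetyltransferase, was at 97.3, 106, 102, 98.1 and 117 CPM in wild type and 112, 121, 126, 129 and 126 CPM in knockout. WT5 lay above KO1, and the log2 fold change was 0.24 (SE 0.05). Kmt2c, a histone methyltransferase gene, had 0.32 (SE 0.08) and the remodeller gene Chd6 0.19 (SE 0.05). The median exonic length of this list was 13790 bases, and with the length trend removed its median log2 fold change was 0.03 and 9 members had an unadjusted p under 0.05. Of 11 nuclear long noncoding RNAs 9 lay higher, with a median of 0.42, and 0.33 with the trend removed. Snhg14, the host transcript of small nucleolar RNAs and antisense to Ube3a, was at 32.3, 41.5, 36.5, 33.8 and 51.1 CPM in wild type and 42.4, 62.6, 63.3, 59.7 and 53.8 CPM in knockout. WT5 lay above KO1, and the log2 fold change was 0.53 (SE 0.13). Kcnq1ot1, an imprinted antisense RNA, had 0.62 (SE 0.18). Counts of both RNAs are uncertain, since the strand setting is not known.

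In the list of collagens and basement membrane 29 of 33 genes lay higher, with a median of 0.16 and 0.13 with the length trend removed. The list holds Hmcn2 and Thbs1, described above. Of its members, 11 had an unadjusted p under 0.05, all higher. Col6a3, a collagen VI gene, had a log2 fold change of 0.55 (SE 0.18). Col1a2, a collagen I gene that meningeal fibroblasts also express, was at 18.9, 16.1, 12.02, 14.1 and 17.4 CPM in wild type and 23.6, 16.4, 29.8, 20.98 and 17.3 CPM in knockout, with overlapping groups. Markers of meningeal fibroblasts lay higher for 13 of 16 genes, with a median of 0.12, of 0.21 without WT5 and of -0.14 in hippocampus, and summed to 437.6 to 733.7 CPM across wild-type libraries, against 544.6 to 721 CPM in knockout. Their part in the matrix result was not tested.

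Of 33 interferon response genes 31 lay higher, with a median of 0.28, and 8 had an unadjusted p under 0.05. Oasl2, an antiviral gene, was at 2.46, 2.34, 2.14, 2.28 and 2.27 CPM in wild type and 3.24, 7.095, 3.18, 3.71 and 2.76 CPM in knockout. The groups did not overlap, KO2 stood far above the rest, and the log2 fold change was 0.81 (SE 0.23). Ifit1 ranged from 2.07 to 3.09 CPM in wild type and was at 5.09, 7.50, 3.45, 4.01 and 2.52 CPM in knockout, so KO5 lay inside the wild-type range. The median deviation of the list from the 10-library mean was 0.31 in KO1 and 0.55 in KO2, and at most 0.04 in the other 8 libraries. The hippocampal median was 0.06.

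Of 22 circadian clock genes 18 lay higher. The median was 0.14, and 10 of the higher and 1 of the lower genes had an unadjusted p under 0.05. Per3, a clock repressor gene, was at 29.5, 36.5, 37.5, 41.9 and 54.3 CPM in wild type and 38.4, 60.3, 63.2, 63.7 and 57.3 CPM in knockout. WT5 was the highest wild-type and KO1 the lowest knockout library, and the log2 fold change was 0.50 (SE 0.15). Dbp, a clock output gene, had 0.34 (SE 0.12), and the activator gene Npas2, at -0.18 (SE 0.07), was opposite. The sources used here do not give the time of day of dissection. Of 31 immediate early genes, whose transcription responds to neuronal firing, 24 lay higher, and the median was 0.24. Their deviations from the mean ran from -0.52 to 0.39 within wild type and from -0.21 to 0.55 within knockout. Fos was at 50.8, 38.1, 17.3, 11.7 and 25.8 CPM in wild type and 24.4, 34.6, 47.2, 24.3 and 61.6 CPM in knockout, with broad overlap.

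**Figure D4:**
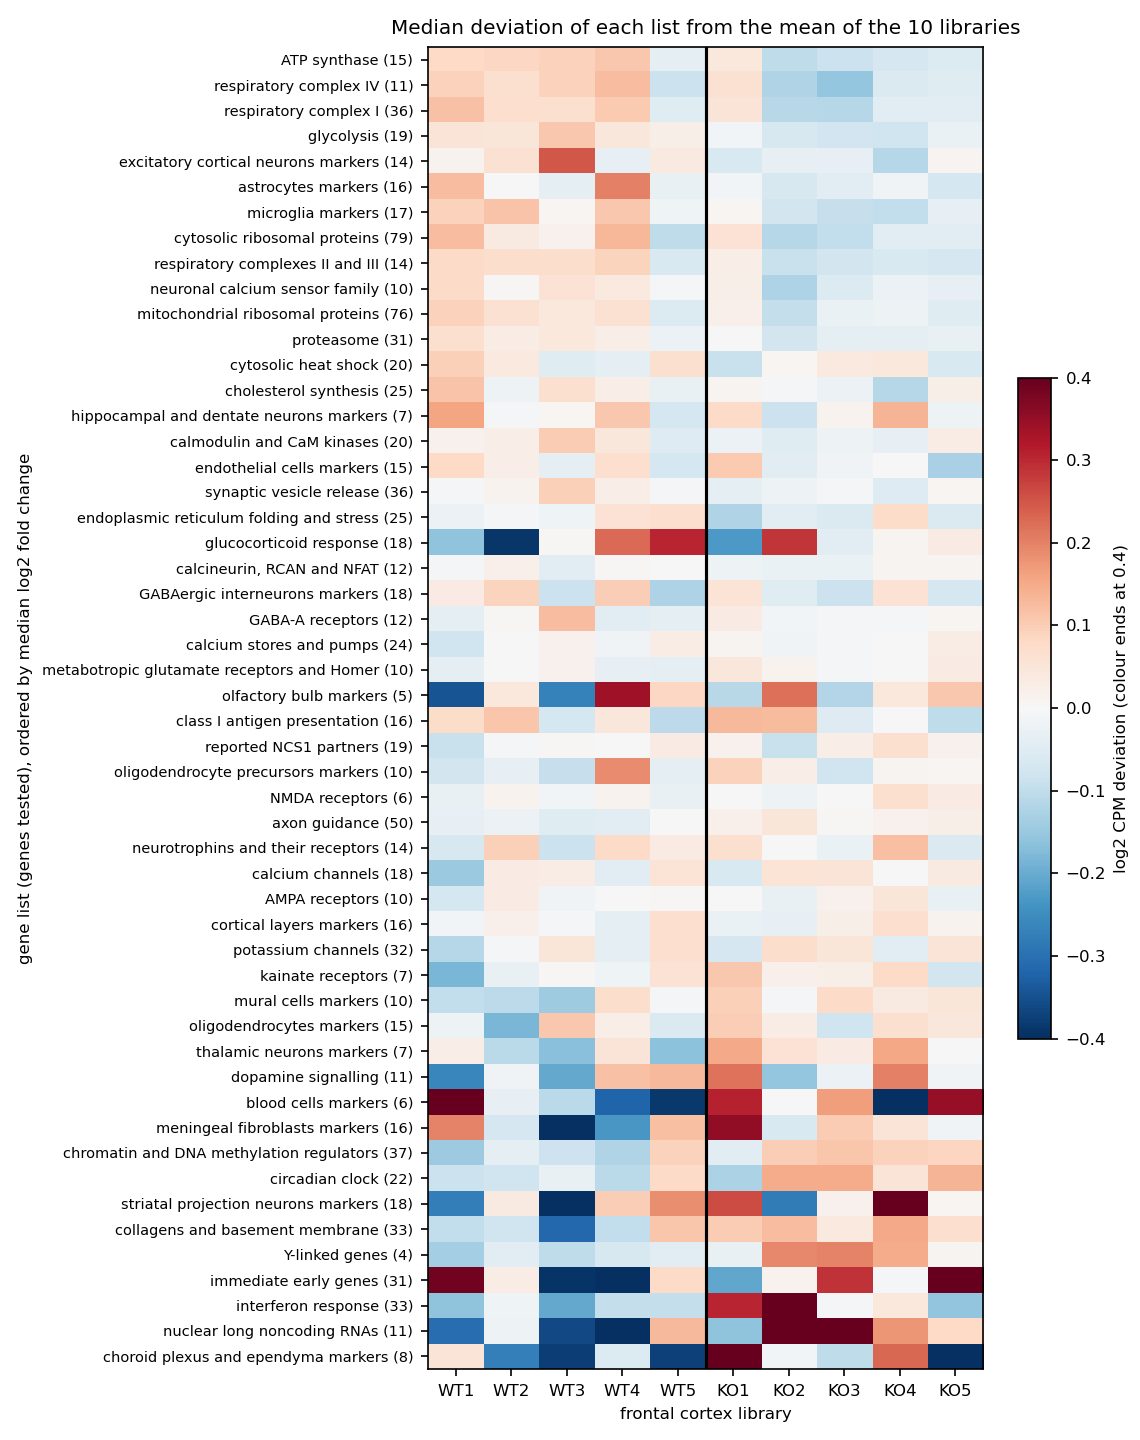
Median deviation of each gene list from the mean of the 10 libraries, in log2 CPM, with lists ordered by fold change and libraries in columns. Lists of mitochondria and ribosomes are higher in WT1 to WT4 and lower in KO2 to KO5, WT5 and KO1 take the colours of the other genotype in many lists, and the interferon list is high in KO1 at 0.31 and KO2 at 0.55.

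Astrocyte markers lay lower for 15 of 16 genes, with a median of -0.10 and -0.12 with the length trend removed, and summed to 10340 to 11740 CPM across wild-type libraries, against 10060 to 10350 CPM in knockout. Their median deviation from the 10-library mean was 0.122, 0.00223, -0.0388, 0.201 and -0.0289 in WT1 to WT5. In knockout it ran from -0.0703 to -0.0102, so WT3 and WT5 lay inside the knockout range. Acsbg1, a lipid enzyme gene of astrocytes, had a log2 fold change of -0.16 (SE 0.05). Microglia markers lay lower for 16 of 17, with a median of -0.10 and -0.06 with the length trend removed, led by the complement gene C1qb at -0.22 (SE 0.06). The median deviation of this list was 0.0077 in WT3 and -0.0172 in WT5, inside the knockout range of -0.0981 to 0.00936. Markers of excitatory neurons lay lower for 11 of 14, with a median of -0.11, and the vesicular glutamate transporter gene Slc17a7 had -0.15 (SE 0.05). The median deviation of these excitatory neuron markers was 0.0129, 0.0605, 0.247, -0.0333 and 0.0347 in WT1 to WT5. WT4 thus lay inside the knockout range of -0.115 to 0.0114, and WT3 stood far above the rest. The layer markers, which are also made by these neurons, had 10 of 16 higher and a median of 0.03, opposite in sign with the length trend removed at -0.04, and 0 had an unadjusted p under 0.05. Interneuron markers were split, with 9 higher and 9 lower and a median of -0.01, or -0.06 without WT5, and 5 of the lower genes had an unadjusted p under 0.05. These included the neuropeptide genes Npy (-0.20, SE 0.06), Cck (-0.25, SE 0.07) and Vip.

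Smooth muscle genes lay higher among mural markers. Myh11, which encodes smooth muscle myosin, was at 10.0, 13.6, 11.7, 17.1 and 18.7 CPM in wild type and 23.3, 22.5, 22.96, 22.5 and 16.6 CPM in knockout. KO5 lay below WT4 and WT5, and the log2 fold change was 0.61 (SE 0.15). Acta2 had 0.41 (SE 0.12) and Tagln 0.38 (SE 0.14), while the whole list of 10 genes had a median of 0.05. Striatal markers lay higher for 17 of 18 genes, with a median of 0.15, of 0.25 without WT5 and of -0.03 in hippocampus, and Rgs9 alone had an unadjusted p under 0.05. Rgs9 was at 46.1, 81.2, 49.5, 77.2 and 127 CPM in wild type and 94.8, 96.1, 109, 127 and 105 CPM in knockout, with WT5 at the top of both groups. Choroid plexus markers had a median of 0.68, and of 0.495 in hippocampus. In cortex the median deviation of the list from the 10-library mean was 1.81 in KO1 and between -0.419 and 0.229 in the other 9 libraries. Ttr, the transthyretin gene, was at 206 CPM in KO1 and between 0.104 and 1.75 CPM in the other 9 libraries. The 4 tested Y-linked genes lay higher, with a median of 0.21, and were led by the demethylase gene Kdm5d at 0.24 (SE 0.07). They summed to 130.5 to 140.9 CPM across wild-type libraries, against 141.8 to 172.0 CPM in knockout, so Y-linked RNA was present in every library.

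**Figure D5:**
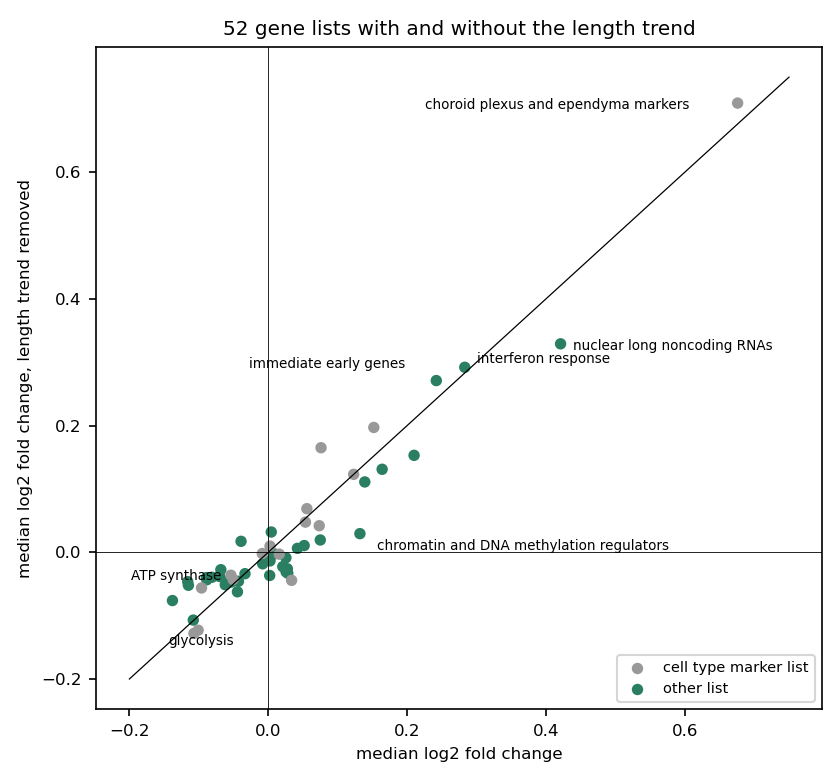
Median log2 fold change of each of 52 gene lists against the same value once each library's trend with exonic length was removed, with cell type markers in grey, other lists in green and the line of equal values. Chromatin regulators move from 0.13 to 0.03 and ATP synthase from -0.14 to -0.08, while glycolysis stays at -0.11 and the interferon response at 0.28 and 0.29.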

How the data were processed

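Total RNA was extracted with the RNeasy Mini kit and sequenced on Illumina instruments, per the labels' protocols. The deposited values of frontal cortex are expected counts per gene, one table for the 10 libraries, not scaled for depth, and the listed genes had totals of at least 10. Per the submitters' processing notes, the tools were STAR 2.7.3a and Partek and the build was mm10. The sources used here name no annotation, strand setting or filter. Coordinates are those of the deposited table, counted from 1.

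Expected counts were rounded and tested in edgeR 4.0.16 under R 4.3.3, with filterByExpr, TMM scaling and the quasi-likelihood F test over the 10 libraries, and Benjamini-Hochberg adjustment over all 14823 tested genes, which held 99.945% of counts. Standard errors were derived from the fold change and its F statistic. Log2 levels used a prior count of 2. Exonic lengths came from GENCODE M21 by symbol for 98% of genes. Principal components used log2 levels. Promoter windows came from RefSeq (GRCm38.p6), and Lypd6b had no entry. Groups and replicate numbers came from the sample titles. No pair of libraries of a group was a duplicate, with the lowest chi-square per degree of freedom over genes at 3.45.

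Members and gene lists were chosen with earlier results of these data known. The text names Ncs1, called genes, the genes of smallest p up to 20, up to 3 members of smallest p per list, 10 genes per direction in the fit without WT5, 6 genes per direction of largest fold change without overlap and at least 5 CPM, and 3 neighbours on each side of Ncs1. Hpca, Vsnl1, Ncald, Slc2a1, Slc2a3, Drd1, Fos, Lcn2, Ccdc187, Lrrc26, Cacnb1 and Cacnb3 were named after their values were seen. Most list members are given only through the counts of their list. Alternatives were other scaling and filters, DESeq2 1.42.0, limma-voom in limma 3.58.1, a robust prior, glmTreat against 1.2-fold, all 20 libraries, the replicate number as a block, removal of the length trend, removal of Rn45s and each library left out. The first surrogate variable (sva 3.50.0) was added after seeing the data. On simulated counts of 14717 genes for this comparison, 50 genes each were given a change of 1.2, 1.5, 2 or 3-fold, and edgeR found 14, 42, 46 and 50 of them. It made 166 calls, 14 of them false. The simulated counts were drawn gene by gene, with no trend with exonic length and no library displaced towards the other genotype.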

Additional observations from a re-analysis of the deposited data

Results flagged for a closer look

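In the genes named by rule, each genotype group of 5 was searched for a library whose gap to its nearest neighbour took an unusually large share of the range of its group (Dixon's test at 95%). Of 86 such groups, 10 had one, and chance gives about 1 in 20. WT5 was the highest wild-type library for 4 genes, at 10.47 CPM for Zbtb37, 39.96 CPM for Xkr4, 103.6 CPM for Flna and 115.1 CPM for Rsf1. These 4 genes were among those named because leaving out WT5 called them. KO2 was the highest knockout library for Xkr4, at 44.97 CPM, and for Rnf213, at 26.13 CPM, and the lowest for Lrfn2, at 16.84 CPM. KO3 was the highest knockout library for Myoc, at 12.58 CPM, KO4 the lowest for Golga7b, at 88.89 CPM, and KO1 the highest for Map1lc3a, at 97.21 CPM. The causes were not tested.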

How the results depend on the processing

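The 4 called genes kept their direction under all 23 alternatives, with log2 fold changes from -0.52 to -0.48 for Ncs1, 2.90 to 3.30 for Hmcn2, 0.51 to 0.59 for Trub2 and -1.14 to -0.97 for Lypd6b. Trub2 was lost only against a fold of 1.2 (3 calls), and Hmcn2 and Lypd6b had no adjusted p only in DESeq2. Their number in all was less stable. DESeq2 called 151 of 6621 genes with an adjusted p (71 higher, 80 lower), of which 120 were among the 563 called without WT5. A robust prior called 8, adding Arl5a, Cercam, Pcdhb19 and Thbs1. The first surrogate variable called 7, adding Arl5a, Snhg14 and Ttr, and a fit of all 20 libraries called 7, adding Cercam, Myoc and Serpina3g. With each library left out in turn the count ran from 4 to 563, the highest without WT5 and the next, 6, without KO3. The cause was not tested. Removal of the length trend called 5, adding Zkscan16. Replicate numbers did not pair the libraries: the correlations of same-numbered deviations were 0.146, -0.0523, -0.0315, 0.0508 and 0.00389, and a replicate block called the same 4 genes. Of other values, 860 for named genes were stable, 60 came past the threshold and 4, all of D330023K18Rik, moved. List medians moved by more than their spread in 17 of 1092 cases, from 11 lists. At 5 libraries a group and this depth, changes near 1.2-fold were mostly below what the simulated test recovered. The simulation held no displaced library such as WT5 or KO1 and no length trend, so its recovery may not hold for these libraries.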
